A study of Mus musculus with 10 samples.

Results

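The genes described here are the 77 nuclear genes that carry the name of a mitochondrial ribosomal protein, 48 of the large subunit series (Mrpl) and 29 of the small subunit series (Mrps). They were taken by name alone from a table of 55359 genes. The table held 83 rows whose mouse symbol is Mrpl or Mrps followed by a number, of which 5 are pseudogenes and 78 are protein-coding. Mrpl53 was listed at 0 in every tumor, where a count of 0 allows up to 3 reads per tumor, and the other 77 had a mean of at least 1 normalized count over the 10 tumors. No expression difference was used to choose them, and all 77 were among the 24560 genes tested.

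KPC K8484 cells, a mouse pancreatic cancer line that carries Trp53 R172H and Pdx1-Cre and expresses luciferase, were grown in the pancreas of C57BL/6 J mice implanted at 10 weeks of age. RNA was sequenced from 5 tumors of mice on regular water (CTRL, normoglycemic) and 5 tumors of mice on 30% dextrose water (D30, hyperglycemic), each for 14 days. As the study describes them, all tumors of both groups therefore come from 1 cancer cell line, with the same alleles in each. The sample titles call these tumors PDX (patient-derived xenograft) instead, while the gene identifiers are those of mouse. The study used male and female mice in equal number, but the labels do not give the sex of the mice whose tumors were sequenced. The study asked how a high-glucose state changes the tumor, and the comparison below asks how the mitochondrial ribosomal protein genes take part in it.

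Mitochondria keep their own ribosomes, which translate the few messenger RNAs of the mitochondrial genome into core subunits of the respiratory chain and ATP synthase. The ribosomal RNAs are made inside the organelle, whereas all ribosomal proteins are encoded in the nucleus, made in the cytosol and imported. Some of these proteins descend from the bacterial ribosome, and others joined the particle only in mitochondria. Transcription factors of the NRF1, ETS (GABP) and YY1 families are known regulators of nuclear genes for mitochondrial proteins.

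The members lie on 17 chromosomes. Each member was matched to the RefSeq promoter table (GRCm38.p6), which gives 250 bases before to 50 bases after a start, and 68 members had 74 promoters in it. The promoters of 4 members with low p-values in the comparison of the groups are shown, up to 120 bases that end before their annotated gene, with the matches to an NRF1 or ETS motif that fall in the printed stretch in capitals. Mrpl9 (+ strand, chr3:94443198-94443317) ends in a palindrome that matches the NRF1 motif on both strands, Mrpl17 (- strand, chr7:105811100-105811219) holds an NRF1 match, Mrpl52 (+ strand, chr14:54426789-54426908) holds an ETS match, and Mrpl24 (+ strand, chr3:87919386-87919505) holds no match.
Mrpl9: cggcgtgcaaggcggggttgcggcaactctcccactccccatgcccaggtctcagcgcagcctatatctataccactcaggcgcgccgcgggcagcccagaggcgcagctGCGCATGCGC
Mrpl17: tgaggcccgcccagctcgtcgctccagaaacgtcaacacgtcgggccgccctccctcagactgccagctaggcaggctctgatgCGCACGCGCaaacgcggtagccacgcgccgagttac
Mrpl52: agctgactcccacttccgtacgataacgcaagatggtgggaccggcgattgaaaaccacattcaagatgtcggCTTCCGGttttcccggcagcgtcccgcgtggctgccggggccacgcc
Mrpl24: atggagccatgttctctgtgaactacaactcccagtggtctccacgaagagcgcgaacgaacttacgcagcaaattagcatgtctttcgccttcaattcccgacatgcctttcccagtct

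Motifs were searched by their letters on both strands of each window, and 1 window could hold more than 1 motif. The NRF1 motif, GCGCNTGCG, was present in 24.3% of the 74 member promoters, against 6.31% of all 32851 promoters in the table and 10.7% of the 16100 promoters of tested protein-coding genes. The ETS motif, CCGGAAG, was present in 33.8% of member promoters, against 8.86% of all promoters and 14.4% of those of tested protein-coding genes. The YY1 motif, AAGATGGCG, was present in 10.8%, 1.40% and 2.37% of these promoters, and the E-box, CACGTG, in 9.46%, 7.15% and 8.94%. A match is a string of letters and not an occupied site. Many members share their promoter region with a gene on the other strand: 18 of 77 members (23.4%) had a neighbour that starts within 1000 bases and points away from them, against 8.58% of the 16540 tested protein-coding genes.

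Reads per tumor, recovered from the normalized counts, numbered 29192261 to 42122304. Tumors are named by the columns of the table, N for CTRL and T for D30, since nothing ties a column to 1 mouse. The members together took between 0.278% and 0.416% of the reads of a CTRL tumor and between 0.247% and 0.485% of those of a D30 tumor. Both upper ends belong to single tumors, N1 in CTRL and T4 in D30. T4 was also the only tumor with reads of the 4 Y-linked genes looked at (841 reads, 0 in the other tumors), so that these tumors do not show a balance of the sexes. T5 had the fewest genes with a read (20482, against 23446 to 25912 in the others). The keratins Krt8, Krt18 and Krt19 marked all 10 tumors as epithelial, while the epithelial surface protein Epcam was low, from 15.9 to 191 normalized counts in CTRL and from 0 to 62.5 in D30.

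All members were well expressed, but at very different levels. Divided by the length of the principal GENCODE transcript, their mean over the 10 tumors ranged from 139.5 to 5651 normalized counts per kb, a 40.5-fold range with a median of 939. Of the 77 members, 72 lay above the median of tested protein-coding genes with a mean of at least 10, which was 289 normalized counts per kb over 14292 genes. The highest levels per kb were those of Mrpl52 (5651), a large subunit protein found only in mitochondria, Mrps21 (4046) and Mrpl33 (4015), both with bacterial counterparts, Mrpl34 (3769.5) and Mrpl30 (2771). The lowest were those of Mrpl47 (139.5), which stands at the exit of the peptide tunnel, Mrps25 (230.3) and Mrps30 (248). These levels depend on the annotated length, which was 418 bases for Mrpl52 and 3364 bases for Mrpl47, and members with a long annotated 3′ end, such as Mrpl17 (7300 bases), stand lower per kb than a shorter transcript would put them. Of the 77 members, 32 overlap another annotated gene, 27 on the opposite strand (Mrpl24 and Mrpl9 among them) and 7 on the same strand (Mrps6, Mrpl33 and Mrps18c among them), where reads may have been split between the genes. Pseudogenes of Mrpl23 and Mrps36 were listed at means of at most 13.8 and 1.85 normalized counts and could share reads with them.

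**Figure D1:**
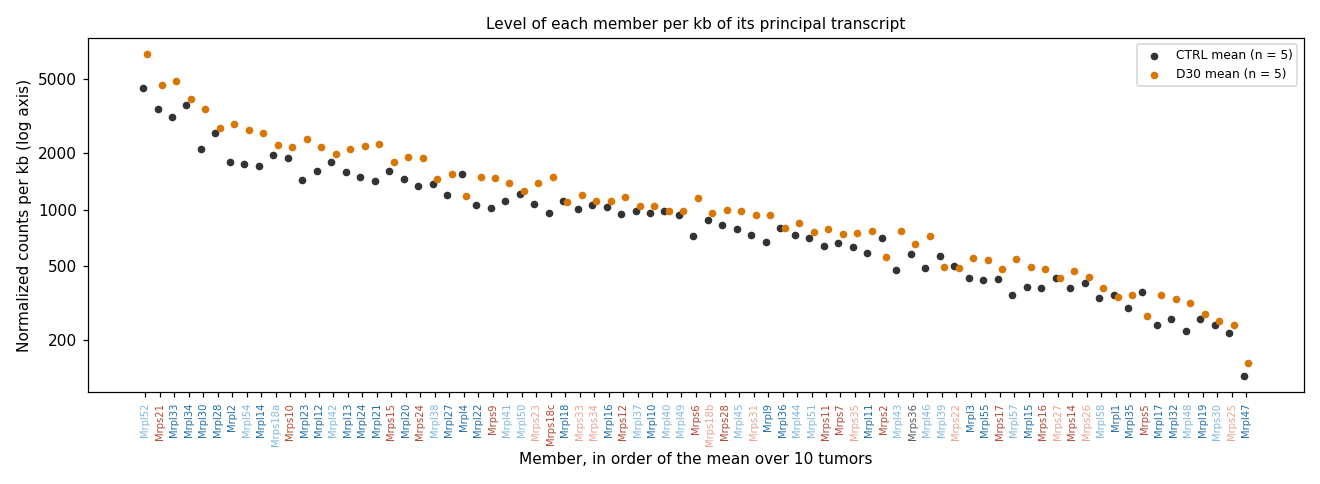
Mean normalized counts per kb of the principal transcript (log axis) for each of the 77 members, in order of the mean over 10 tumors, with 1 point for the CTRL mean and 1 for the D30 mean (n = 5 each) and label colors for large (blue) and small (red) subunit proteins, dark for those with a bacterial counterpart, and gray for Mrps36. Levels run from 5651 for Mrpl52 to 139.5 for Mrpl47, and both subunits are spread over the whole range.

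With the deposited scaling the mitochondrial ribosomal protein genes were on the whole slightly higher in D30 than in CTRL tumors, but not with library-size scaling or without the D30 tumor T4, and no single member passed the test. Of 77 members, 64 had a higher and 13 a lower mean of log2(normalized count + 1) in D30, and their median log2 fold change (D30 minus CTRL) was 0.17 against -0.065 over all tested genes. Single members ranged from -0.44 for Mrps5 to 0.66 for Mrpl23. With limma and Benjamini-Hochberg adjustment over all tested genes, 0 of 77 members were called higher at an adjusted p under 0.05 (1.40% of all tested genes) and 0 were called lower (1.36% of all tested genes). The lowest adjusted p was 0.145, for Mrpl24. At an unadjusted p under 0.05 there were 8 higher members (7.79% of all tested genes) and 2 lower members (9.54% of all tested genes).

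The small shift of the whole group rested on 1 tumor. Without T4 the median log2 fold change of the members was 0.0036, with 39 members higher and 38 lower, and 25 members changed sign. Without T5 the median was 0.31 and without N1 it was 0.29. Under plain library-size scaling the members' median was -0.050, with 34 members higher and 43 lower, while the median of all genes moved to -0.27 on that scale. The difference between the median of the members and that of all genes was 0.24 with the deposited scaling, 0.22 with library-size scaling and 0.056 without T4.

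Mrpl24, a large subunit protein whose bacterial counterpart starts the folding of the large ribosomal RNA, had the smallest p among the members. Its normalized counts were 2530.1, 1723, 1962, 1818 and 2033 in CTRL tumors N1, N2, N4, N5 and N6, and 2653, 2732, 3762, 2394 and 3140.3 in D30 tumors T1, T2, T4, T5 and T7. All D30 tumors but T5 lay above every CTRL tumor, and T5 lay above every CTRL tumor but N1. The log2 fold change was 0.54 ± 0.18 (SE; limma, adjusted p = 0.145), and it was 0.45 without T4. Mrpl24 overlaps Rrnad1 on the opposite strand, and whether the counting used strand is not given in the sources used here.

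Mrpl9 and Mrpl52 were the members whose D30 tumors all lay above all CTRL tumors, a pattern shown by 2 of 77 members and by 2.87% of all tested genes. Mrpl9, a protein of the base of the large subunit's side stalk in bacteria, had 1133, 1032, 1271, 880.0 and 1105 normalized counts in CTRL tumors and 1325, 1429.5, 1618, 1631 and 1573 in D30 tumors. The step between the groups was narrow, from N4 to T1, and T4 was not the highest tumor. Its log2 fold change was 0.49 ± 0.17 (SE; limma, adjusted p = 0.150) and stayed at 0.46 without T4. Mrpl52 had 2201, 1691, 2095, 1510.3 and 1893 normalized counts in CTRL and 2254, 2297, 4033, 2742 and 2905 in D30. N1 and T1 almost met, and T4 stood well above the other D30 tumors. Its log2 fold change was 0.58 ± 0.20 (SE; limma, adjusted p = 0.153) and 0.45 without T4.

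Mrpl4, which lines the peptide exit tunnel of the large subunit, went the other way. It had 1820.0, 1973, 2152, 1959 and 2038 normalized counts in CTRL tumors and 1488, 1352, 1694, 1635 and 1412 in D30 tumors. The groups did not overlap, which was so for 1 of 77 members in this direction and for 3.32% of all tested genes, and T4 was the highest of the D30 tumors. The log2 fold change was -0.39 ± 0.15 (SE; limma, adjusted p = 0.204) and -0.44 without T4. Mrpl4 kept a negative fold change in each alternative tried and was the member called most often among them, with limma on library-size scaling (adjusted p = 0.0429, log2 fold change -0.62) and with DESeq2 on the recovered reads (adjusted p = 0.0307). Its adjusted p ranged from 0.00587 to 0.387 over all alternatives.

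DESeq2 on the recovered reads called 2 members higher, Mrpl9 (adjusted p = 0.0250) and Mrpl24 (adjusted p = 0.0468), where 4.62% of all tested genes were called higher. It called 1 member lower, Mrpl4, where 3.35% of all tested genes were called lower. Over all genes DESeq2 made 1957 calls, limma 678 and edgeR's quasi-likelihood test with TMM 642, the last with 0 members among them.

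**Figure D2:**
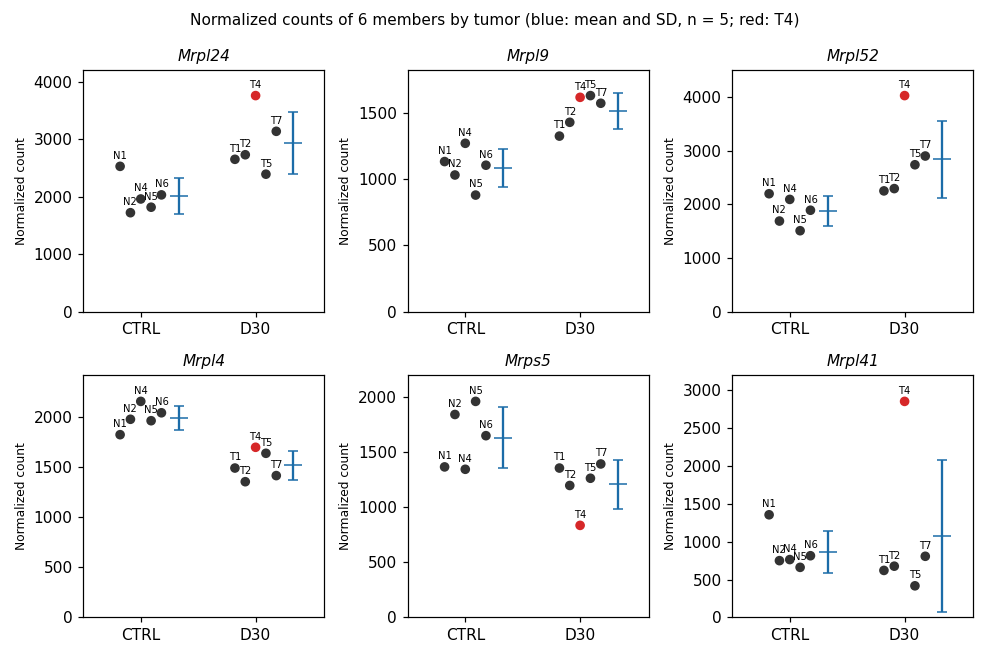
Normalized counts of 6 members (y axes from 0), with 1 point per tumor named by its column, T4 in red, and the mean and SD of each group (n = 5) in blue. The groups do not overlap for Mrpl9, Mrpl52 and Mrpl4, and T4 is the highest tumor for Mrpl24, Mrpl52 and Mrpl41 and the lowest for Mrps5.

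The other members with the smallest p on the higher side all had their highest value in T4. Mrpl17 had 2290.2, 1462, 2016, 1378 and 1678 normalized counts in CTRL and 2093, 2362, 3398, 2078 and 2904 in D30, so that N1 reached into the range of the D30 tumors (log2 fold change 0.54, limma adjusted p = 0.200). Mrpl2, which lies at the peptidyl transferase center, had 1631 to 2159.8 normalized counts in CTRL and 1927 to 5056 in D30 (log2 fold change 0.59, limma adjusted p = 0.221). Mrpl23, a protein of the tunnel exit, had 770.2 to 1228 in CTRL and 1100.2 to 2874 in D30 (log2 fold change 0.66, limma adjusted p = 0.209).
Mrpl30 had 1526 to 2838 normalized counts in CTRL and 2294 to 6027 in D30 (log2 fold change 0.64, limma adjusted p = 0.239). The small subunit protein Mrps6 had 444 to 814 in CTRL and 685 to 1659.7 in D30 (log2 fold change 0.64, limma adjusted p = 0.242). Without T4 the log2 fold changes of these 5 members were between 0.37 and 0.44. Mrps6 shares its strand and part of its span with Slc5a3.

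Only 13 members were lower in D30, and Mrpl4, Mrps5 and Mrps2 stood apart among them. Mrps5, a small subunit protein near the channel where messenger RNA enters, had 1366, 1841, 1344, 1960.0 and 1649 normalized counts in CTRL and 1355, 1197, 835, 1263 and 1392 in D30. The groups overlapped at N1, N4, T1 and T7, and T4 was the lowest tumor of all (log2 fold change -0.44 ± 0.20 SE, limma adjusted p = 0.275). Mrps2 had 1469.7, 1454, 1559, 1528 and 1357 in CTRL and 1508, 1263, 945, 825 and 1229 in D30, with T1 inside the range of CTRL (log2 fold change -0.38 ± 0.19 SE, limma adjusted p = 0.327). Both had a negative difference without T4 as well, -0.31 for Mrps5 and -0.32 for Mrps2.
The next 5 on this side had small differences that depended on the tumors. The log2 fold change was -0.20 for Mrpl39, -0.14 for Mrpl1 (the moving stalk protein of the large subunit), -0.14 for Mrps22, -0.11 for Mrpl50 and -0.075 for Mrpl36, with limma adjusted p from 0.660 to 0.922. Mrpl1 shows how: its CTRL tumors had 1939.9, 1023, 1029, 1118 and 1143 normalized counts and its D30 tumors 817, 901, 2473, 843 and 1035. N1 and T4 were far above the others, and without T4 the log2 fold change was -0.44.

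The direction did not separate the subunits. The 50 members of the large subunit were mostly higher with the deposited scaling (41 against 9 lower), with a median of 0.19 on the log2 scale, as were the 26 of the small subunit, with a median of 0.17 (22 against 4), where the proteins are placed by structure and not by name. The 46 members with a bacterial counterpart had a median of 0.27, with 39 higher, and the 30 specific to mitochondria had a median of 0.092, with 24 higher. Without T4 these medians were 0.027 and -0.085, and with library-size scaling they were 0.044 and -0.13, where those of the large and small subunit were -0.035 and -0.055. By class, the medians were 0.27 for 30 large subunit members with a bacterial counterpart, 0.11 for 20 that are specific to mitochondria, 0.24 for 16 small subunit members with a bacterial counterpart and 0.072 for 10 that are specific to mitochondria.

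**Figure D3:**
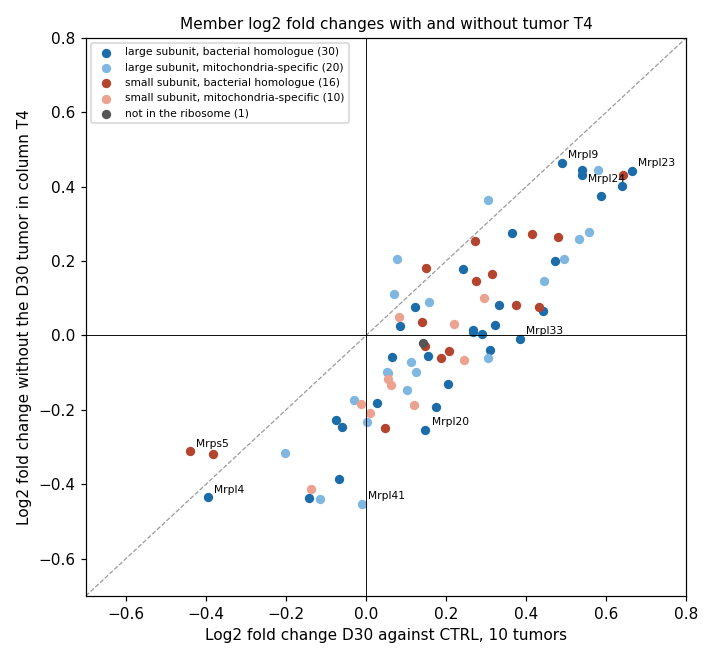
Log2 fold change (D30 minus CTRL) of each of the 77 members over 10 tumors (x axis) against the same without T4 (y axis), colored by class, with equal values on the dashed line. Most points lie below the line, 25 change sign, and the members as a whole move from a median of 0.17 to one of 0.0036.

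Several members stand elsewhere than their names say. Mrps30 and Mrps18a are large subunit proteins, and Mrps36 is a component of the alpha-ketoglutarate dehydrogenase complex of the TCA cycle. Mean normalized counts of Mrps30 were 804 ± 220.5 in CTRL and 845 ± 269 in D30 (SD, n = 5), and those of Mrps36 were 406 ± 53.1 and 461 ± 144. Neither passed the test (limma adjusted p = 0.940 for Mrps30 and 0.8001 for Mrps36).
Mrps18a, Mrps18b and Mrps18c are 3 relatives of 1 bacterial protein that occupy different places in the ribosome, Mrps18c the original one. In the classes above, Mrps18c was counted as having a bacterial counterpart, and Mrps18a and Mrps18b were counted as specific to mitochondria. Mrps18a went from 1740.1 ± 223 to 1961 ± 715 (SD, n = 5), Mrps18b from 949 ± 153 to 1029.6 ± 389, and Mrps18c from 615 ± 141 to 950.4 ± 695. None passed the test (limma adjusted p = 0.850, 0.924 and 0.562), and the SD of Mrps18c in D30 came mostly from T4, with 2185 normalized counts against 513 to 738 in the other D30 tumors.

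The members spread more between tumors of a group than they differed between the groups. The median over members in each tumor had a pooled within-group SD of 0.38 (log2). The median log2 fold change over members, which is a different measure, was 0.17. Their median log2 deviation from the mean of all tumors was 0.28 in N1, -0.22 in N2, -0.055 in N4, -0.36 in N5 and -0.14 in N6. In D30 it was -0.15 in T1, -0.096 in T2, 0.92 in T4, -0.28 in T5 and 0.11 in T7. Apart from T4 the D30 tumors lay within the range of the CTRL tumors. The summed normalized counts of the members ran from 86720 to 130894 in CTRL and from 94600 to 121973 in D30 without T4, which had 208317.
T4 held the highest value of the 10 tumors for 64 of 77 members (83.1%), against 24.3% of all tested genes. Its value was at least 1.5 times the mean of the other D30 tumors for 57 members and at least 2 times that mean for 39, with a median ratio of 2.04. The ratio was highest for Mrpl41 (4.53), Mrpl20 (3.99) and Mrpl33 (3.87), the members with the largest spread within the groups, and fell below 1 for Mrpl37, Mrpl38, Mrpl45, Mrps2, Mrps5 and Mrps15. Mrpl41 had 620.0, 676, 417 and 806 normalized counts in T1, T2, T5 and T7 and 2849.9 in T4. At the other end, N5 was the lowest tumor for 32 members and T5 for 25.

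**Figure D4:**
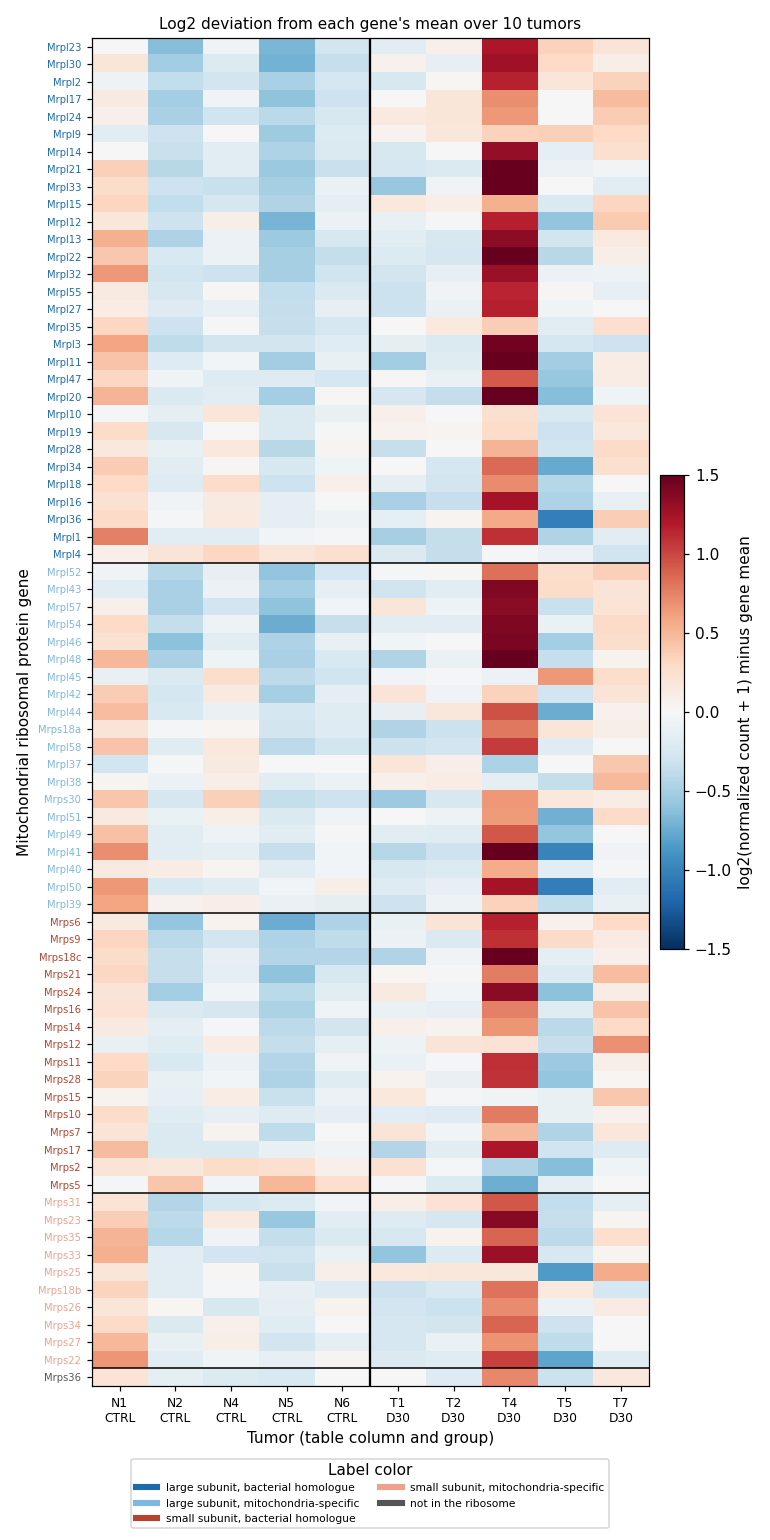
Log2(normalized count + 1) of each member (rows, by class and then by fold change) minus its mean over 10 tumors, for the 5 CTRL and 5 D30 tumors (columns), with the color scale cut at 1.5 in both directions. T4 is red in most rows, N1 pale red and N5 blue, while Mrpl4, Mrps5 and Mrps2 run against the rest.

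Values that moved with the members in T4 and N5, though not in every tumor, were those of short transcripts and of 2 other lists of short, abundant genes. In T4 the median deviation from the other tumors fell with transcript length, from 0.62 for the shortest of 4 equal classes of protein-coding genes (up to 1859 bases) to 0.022, -0.27 and -0.60 for the longer classes, and 51 of 77 members lie in the shortest class. The members in that class had a median of 1.14 in T4 and the other members one of 0.79. In N5 the order was the opposite, from -0.30 in the shortest to 0.26 in the longest class, with the members at -0.40. In T5 the shortest class stood at -0.034 and the members at -0.32. Between the groups, genes of the shortest class had a median log2 fold change of 0.16 and the members among them 0.21, or 0.052 and 0.016 without T4. The part of transcript length in the members' values was not tested.
Of 82 cytosolic ribosomal protein genes, 81 were higher in D30 and 7 of them were called, and their median log2 fold change was 0.80 (0.53 without T4). Of 37 nuclear genes for subunits of respiratory complex I, all 37 were higher and 1, Ndufa6, was called, with a median of 0.41 (0.21 without T4). With library-size scaling the cytosolic list had a median of 0.58 (79 of 82 higher) and complex I one of 0.19 (27 of 37 higher). Both lists deviated upward in T4, by a median of 1.38 and 1.09, as the members did. In T5 the cytosolic list stood at 0.39 and complex I at -0.098, where the members stood at -0.28. The 13 protein genes of the mitochondrial genome, whose messages the mitochondrial ribosome translates, had a median of -0.39, with 4 higher, 9 lower and 0 called by limma, 1 of the 9 at an unadjusted p under 0.05. Their median was -0.15 without T4 and -0.61 with library-size scaling. Their reads may be shared with near-identical nuclear copies, and they are uncertain for that reason.

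**Figure D5:**
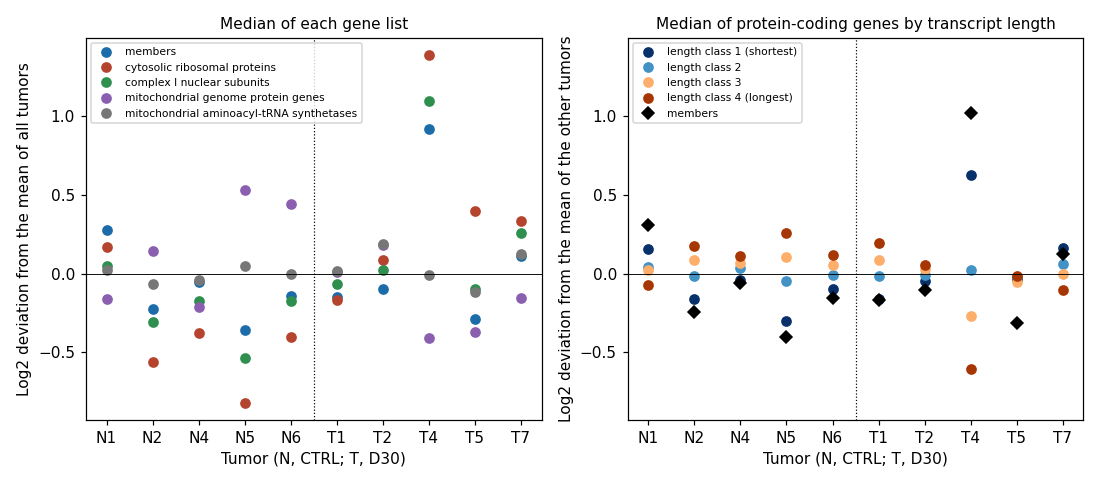
Median log2 deviation by tumor of the members and 4 other lists, from the mean of all tumors (left), and of the members and of protein-coding genes by class of transcript length, from the mean of the other tumors (right), with CTRL left and D30 right of the dotted line. In T4 the members, cytosolic ribosomal protein genes and complex I genes stand at 0.92, 1.38 and 1.09, while the length classes run from 0.62 for the shortest to -0.60 for the longest.

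In bulk tumor RNA, fewer cells of a type and less RNA per cell cannot be told apart. Epithelial markers were higher in D30 for 7 of 8 genes (all but Epcam), and their median log2 fold change was 0.71. Their summed normalized counts ran from 224793 to 355325 in CTRL tumors, below the 377665 to 500302 of D30 tumors. Fibroblast markers were lower for 8 of 8 genes, with a median of -0.86 and their sums ran from 76539 to 135533 in CTRL tumors and from 26981 to 102553 in D30. Neither list had a gene called or a gene at 0 in every tumor. Endothelial, macrophage and T cell markers had medians of -0.91, -0.80 and -0.86, neutrophil markers one of 1.72, and those of acinar and islet cells of the host pancreas medians of -4.48 and -4.56. Higher in D30 were 1 of 6 endothelial, 1 of 6 macrophage, 0 of 6 T cell, 5 of 5 neutrophil and 0 of 6 islet markers. The neutrophil marker S100a8 was uneven, from 140 (N5) to 1405 (N1) normalized counts in CTRL and from 176 (T1) to 5561 (T5) in D30. Limma called 1 endothelial gene (Cdh5), 1 macrophage gene (Csf1r) and 4 islet genes lower, and 0 acinar, T cell or neutrophil genes. Acinar markers were uneven within CTRL: Cpa1 ran from 7.36 in N1 to 5202 in N6, and from 0 to 359 (T4) in D30. Of the 6 acinar markers, 1 was higher in D30. The part of these cell types in the members' values was not tested.

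The genes that work with the mitochondrial ribosome had medians on both sides of 0. With the deposited scaling, the 5 ribosomal proteins with other names, Dap3, Ptcd3, Chchd1, Aurkaip1 and Gadd45gip1, were higher for 4 and lower for 1, with 0 called by limma and a median of 0.37 on the log2 scale. Without T4 the median of these 5 was 0.11 (3 higher, 2 lower), and with library-size scaling it was 0.14. Dap3, a small subunit protein that binds GTP, was at 2345 to 3056 normalized counts in CTRL and 3209.98 to 4021 in D30, so that the groups did not overlap (log2 fold change 0.46, limma adjusted p = 0.152), and it kept 0.46 without T4. The 27 assembly factors were 13 higher and 14 lower, with a median of -0.072 and 0 called by limma. Among them Malsu1, which keeps the unfinished large subunit from joining the small one, had a log2 fold change of 0.71 and the GTPase Mtg2 one of -0.40 (limma adjusted p = 0.268 and 0.299), which were 0.41 and -0.39 without T4.
Of 16 translation factors tested, 6 were higher and 10 lower, with a median of -0.060. The release factor gene Mtrf1 was called: it rose from 164 ± 66.8 normalized counts (SD, n = 5) in CTRL to 389 ± 87.9 in D30 (log2 fold change 1.29 ± 0.29 SE, limma adjusted p = 0.0319), although N1, at 278, exceeded T5, at 267. The 17 mitochondrial aminoacyl-tRNA synthetases, which charge the transfer RNAs of the organelle, were 8 higher and 9 lower, with a median of -0.024 and 0 called by limma. Lars2 and Ears2 had the smallest p among them (log2 fold change 0.62 and 0.57, limma adjusted p = 0.156 and 0.198). With library-size scaling 4 of 27 assembly factors, 2 of 16 translation factors and 5 of 17 synthetases were higher, with medians of -0.30, -0.28 and -0.25, where the median of all genes was -0.27.

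Among 12 regulators of mitochondrial gene expression, 2 were called, in opposite directions. Esrra, a nuclear receptor that drives genes of oxidative metabolism, had 2151, 2181, 2099.6, 2192 and 2552 normalized counts in CTRL and 3527, 4466, 7069, 2786 and 4289.7 in D30. All D30 tumors lay above all CTRL tumors (log2 fold change 0.92 ± 0.23 SE, limma adjusted p = 0.0491). Ppargc1a, the coactivator with which Esrra works in mitochondrial biogenesis, had 213, 335, 159.9, 366 and 196 in CTRL and 94.6, 116, 46.3, 145 and 47.9 in D30. All D30 tumors lay below all CTRL tumors (log2 fold change -1.56 ± 0.38 SE, limma adjusted p = 0.0478). The related coactivator gene Ppargc1b went the other way at a low level, from a mean of 14.9 normalized counts in CTRL to 75.1 in D30. It was not called (log2 fold change 1.83, limma adjusted p = 0.152). T4, at 8.10, was its lowest tumor, and without T4 its log2 fold change was 2.48 (limma adjusted p = 0.00256).
The factors whose motifs were searched had small differences: the log2 fold change was 0.068 for Nrf1 (0.022 without T4), -0.33 for Gabpa and 0.073 for Yy1 (limma adjusted p = 0.871, 0.368 and 0.853). Members with an NRF1 match in their promoter (18) had a median log2 fold change of 0.32, and the 50 with a promoter but no match had one of 0.15. Without T4 these were 0.14 and -0.056. For the ETS motif the medians were 0.27 with (25 members) and 0.15 without a match (43 members), and -0.059 and 0.016 without T4, so that their order turned. For the YY1 motif they were lower with a match, 0.13 (8 members) against 0.19 (60 members), and 0.021 against -0.015 without T4. For the E-box they were 0.15 with (5 members) and 0.17 without a match (63 members), and 0.075 and -0.021 without T4. These medians are descriptions and were not tested.

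The genes that share a promoter region with a member were mostly not higher in D30. Of the 18 head-to-head partners, 5 were higher and 0 were called by limma, with a median log2 fold change of -0.25, and 8 had the sign of their member. Mrpl30 and Mitd1, which start 66 bases apart, had 0.64 and 0.62, and Mrpl2 and Klc4, 207 bases apart, had 0.59 and 0.35. Mrps5 and Zfp661, 128 bases apart, had -0.44 and -1.27. The signs were opposite for Mrps18c and Helq, 29 bases apart, at 0.43 and -0.57. No member or partner of these pairs passed the test (limma adjusted p of the partners 0.0689 to 0.357).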

How the data were processed

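RNA of 10 tumors (5 CTRL, 5 D30) had been made into strand-specific libraries and sequenced in pairs. The authors trimmed reads with Trim Galore, aligned them with STAR (2.7.0e) and named DESeq2. The methods name a human reference (hg38), the submitters' processing notes name GRCm39, and the table lists mouse Ensembl identifiers. The authors deposited 1 normalized signal (a gene's count divided by a size factor) per gene and tumor. Of the values, 100.0% were whole reads (tolerance 0.05) once 1 step per tumor was undone. Names came from GENCODE M21 (GRCm38), which named 52083 of 55359 identifiers. Genes with a mean of at least 1 were tested with limma (3.58.1, R 4.3.3) with a mean-variance trend on log2(normalized count + 1), with Benjamini-Hochberg adjustment; fold changes on this scale understate those of low genes. edgeR (4.0.16) and DESeq2 (1.42.0) on recovered reads were alternatives, as were scaling, pseudocount, filter and leaving out tumors. In simulated data (23804 genes, 200 changed) limma recovered 72.2% of 4-fold and 6.36% of 2-fold changes, and 4% of its 75 calls were false. Members, lists and the rule for named genes were chosen with earlier results of these data known. The rule names any called member, the 8 with the smallest p in each direction, the 5 highest and 3 lowest per kb, members misplaced by name or forming a paralog set, and the 3 with the largest spread. Listed genes outside the members are named where called or among the 2 smallest p of their list. Ppargc1b, the motif factors, partners and other members named only for a ratio, overlap or position were chosen after their values were seen. No script used columns beyond these 10.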

Additional observations from a re-analysis of the deposited data

Results flagged for a closer look

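In 14 cases a named member had 1 tumor of its group so far from the nearest other that the gap exceeded Dixon's 95% critical value for 5 tumors. For normally distributed values chance does so in about 1 in 20 groups, but the values used were normalized counts without logs. Mrpl20, Mrpl33 and Mrpl41 fall under the naming rule for the largest spread, so their flags partly follow from that rule. In D30 the tumor was T4 each time and stood above the rest, with normalized counts of 2473 for Mrpl1, 3656 for Mrpl20, 2874 for Mrpl23, 6027 for Mrpl30, 5743 for Mrpl33, 2849.9 for Mrpl41, 5675 for Mrpl50, 1659.7 for Mrps6, 2185 for Mrps18c and 1138 for Mrps22. In CTRL it was N1, again above the rest, with 1939.9 for Mrpl1, 1803 for Mrpl39, 1354 for Mrpl41 and 883 for Mrps22. Over all 77 members the same held for 39 members at T4 and 12 at N1. These cases repeat the same tumors and are not independent, and the share of all tested genes is not given here.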

How the results depend on the processing

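The count of called members was 0 in each direction with the deposited scaling, the other pseudocounts, filters, upper-quartile scaling, edgeR and each tumor left out (range 0 to 0), and it moved with 1 call lower under library-size scaling, and 2 higher and 1 lower with DESeq2. Alternatives chosen after seeing the data gave 1 lower without T4 and T5, and 6 higher (Mrpl9, Mrpl15, Mrpl17, Mrpl24, Mrpl52, Mrps6) and 1 lower (Mrpl4) with limma's array weights, which gave T4 a weight of 0.135. Of all 24560 tested genes, 866 were called under library-size scaling and 1957 with DESeq2, in both directions together. Without T4 and T5 there were 2105 such calls, and with array weights 3829. The members' median log2 fold change was -0.050 under library-size scaling, and 0.0036 to 0.31 with 1 tumor left out. Of 28 named members, 14 changed sign somewhere, and the cause was not tested. Under library-size scaling the log2 fold change was -0.075 for Mrpl20, -0.20 for Mrpl34, -0.068 for Mrpl47, -0.11 for Mrps18a, -0.16 for Mrps18b, -0.14 for Mrps25, -0.17 for Mrps30 and -0.081 for Mrps36, and under upper-quartile scaling 0.035 for Mrpl41. With edgeR and TMM it was 0.0036 for Mrpl36, 0.29 for Mrpl41 and 0.039 for Mrpl50, and 0.011, 0.31 and 0.053 with DESeq2 and with edgeR on DESeq2's size factors. Without T4 and T5 it was -0.15 for Mrpl20, -0.073 for Mrpl33, 0.051 for Mrpl36, -0.17 for Mrps18a, -0.24 for Mrps18b and -0.20 for Mrps30, and with array weights -0.073 for Mrpl20, 0.070 for Mrpl36, -0.079 for Mrps18a, -0.094 for Mrps18b and -0.012 for Mrps30. With 1 tumor left out the ranges were -0.44 to 0.027 for Mrpl1, -0.25 to 0.33 for Mrpl20, -0.0086 to 0.58 for Mrpl33, -0.18 to 0.22 for Mrpl34, -0.23 to 0.17 for Mrpl36, -0.45 to 0.24 for Mrpl41, -0.054 to 0.32 for Mrpl47, -0.44 to 0.13 for Mrpl50, -0.072 to 0.24 for Mrps18a, -0.13 to 0.15 for Mrps18b, -0.41 to 0.043 for Mrps22, -0.049 to 0.30 for Mrps25, -0.10 to 0.20 for Mrps30 and -0.021 to 0.24 for Mrps36. No paired analysis was possible because the numbers of the table's columns are not the replicate numbers of the labels.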
